A study of Homo sapiens with 4 samples.

Results

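The ERBB receptors EGFR, ERBB2, ERBB3 and ERBB4 and their ligands NRG1, AREG, EREG, TGFA, HBEGF and BTC were examined in OE33 cells after knockdown of ARID1A. The members were chosen by gene symbol, taking every probe set of the array that its annotation pairs with only 1 gene, and that gene a member. This gave 39 probe sets of 9 genes, out of 49293 probe sets tested and 18132 genes measured, and AREG, the tenth gene listed, was not analysed here. OE33, a human oesophageal adenocarcinoma line in long use, is known for its amplified ERBB2. The knockdown group was transfected with the ON-TARGETplus SMARTpool against ARID1A, a subunit of the SWI/SNF chromatin remodelling complex, and the mock group with the ON-TARGETplus Non-targeting Pool. Both groups received siRNA at 50 nM with a lipid reagent 24 hours after plating, grew in medium with 15% serum and were harvested 48 hours after transfection. Each group had 2 biological replicates, each on its own Affymetrix Human PrimeView array, so 4 arrays of a single cell line were compared. RNA alone was measured, on bulk cultures, so fewer cells of a kind and less RNA per cell cannot be told apart.

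ERBB proteins are receptor tyrosine kinases of the cell surface that work in pairs and pass growth and survival signals to the RAS-ERK and PI3K-AKT pathways. TGFA, AREG, EREG, HBEGF and BTC are made as membrane-bound precursors, are released by proteases of the ADAM family and bind EGFR, and HBEGF, EREG and BTC also bind ERBB4. NRG1 binds ERBB3 and ERBB4, ERBB2 has no known ligand of its own, and ERBB3 has a kinase domain with little activity and signals through its partners, above all ERBB2. The pathway drives the growth of many carcinomas of the upper digestive tract, and amplified ERBB2 is a drug target in them.

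Promoter sequences are shown for EGFR, HBEGF and EREG (RefSeq, GRCh38.p14). Their brightest probe sets gave larger changes, in either direction, than those of ERBB2, ERBB4, TGFA and BTC. NRG1 and ERBB3, which also had larger changes, are not shown. Each covers 300 bases around a RefSeq transcript start, most of them upstream of it, 5′ to 3′ on the strand of the gene. Capitals mark matches, on either strand, to the AP-1 motif TGANTCA, the GC box GGGCGG, the TATA motif TATAAA and the CCAAT box CCAAT.
EGFR, chr7:55018767-55019066, plus strand: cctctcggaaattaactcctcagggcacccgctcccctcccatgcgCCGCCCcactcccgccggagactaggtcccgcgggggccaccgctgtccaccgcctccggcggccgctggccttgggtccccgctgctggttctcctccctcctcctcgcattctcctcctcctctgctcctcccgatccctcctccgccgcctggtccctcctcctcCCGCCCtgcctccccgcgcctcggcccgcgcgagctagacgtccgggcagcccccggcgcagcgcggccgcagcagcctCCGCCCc
EGFR, chr7:55109589-55109888, plus strand: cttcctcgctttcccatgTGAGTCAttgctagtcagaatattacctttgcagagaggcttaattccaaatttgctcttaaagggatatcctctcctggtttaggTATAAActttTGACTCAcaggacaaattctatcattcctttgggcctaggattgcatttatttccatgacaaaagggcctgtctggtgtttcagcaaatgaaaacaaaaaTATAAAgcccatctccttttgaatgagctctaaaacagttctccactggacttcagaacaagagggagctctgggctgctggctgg
HBEGF, chr5:140346554-140346853, minus strand: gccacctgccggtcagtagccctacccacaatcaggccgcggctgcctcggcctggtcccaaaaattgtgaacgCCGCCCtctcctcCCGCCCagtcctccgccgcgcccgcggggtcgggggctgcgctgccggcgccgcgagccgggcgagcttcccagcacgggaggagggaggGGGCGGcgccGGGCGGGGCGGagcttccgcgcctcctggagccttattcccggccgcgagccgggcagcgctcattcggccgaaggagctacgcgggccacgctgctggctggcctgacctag
EREG, chr4:74364895-74365194, plus strand: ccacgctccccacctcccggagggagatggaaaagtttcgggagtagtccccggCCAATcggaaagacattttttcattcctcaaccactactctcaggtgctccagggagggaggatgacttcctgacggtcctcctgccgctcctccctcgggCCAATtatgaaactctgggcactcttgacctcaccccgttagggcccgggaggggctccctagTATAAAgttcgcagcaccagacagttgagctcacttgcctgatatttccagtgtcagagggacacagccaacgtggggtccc

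The upstream EGFR promoter and the HBEGF promoter are rich in G and C, at 75.3% and 75.0% of bases, and hold 3 and 5 GC boxes and neither an AP-1 nor a TATA match. In HBEGF a pair of the GC boxes shares a base. The downstream EGFR start, which lies inside the gene, has 42.0% G and C, 2 AP-1 matches and 2 TATA matches. The EREG promoter has 57.7% G and C, 1 TATA match, 2 CCAAT boxes and no AP-1 match. Of 35116 promoters of the same length, 7.71% hold the AP-1 motif, 45.0% the GC box, 11.5% the TATA motif and 34.6% the CCAAT box. These matches describe the sequence alone, and the arrays hold no measure of which start was used.

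All values below are signals on the log2 scale after the authors' normalization with RMA, and a log2 change is the mean of the knockdown arrays minus the mean of the mock arrays. ARID1A itself fell to 7.53 and 7.53 in knockdown cells, against 9.28 and 9.33 in mock cells, at its brightest probe set (log2 change -1.78, SE 0.0718, adjusted p = 0.0218). Array medians ran from 5.90 to 5.92 in knockdown and from 5.89 to 5.93 in mock arrays. The 8 epithelial markers examined, among them EPCAM, CDH1 and the keratin genes KRT8, KRT18 and KRT19, all had signals above the median of all probe sets, and none passed the test. All 7 fibroblast markers were below that median, with changes from -0.44 (DCN, groups apart, adjusted p = 0.0934) to 0.27 (THY1). The log2 signals of 7 leukocyte and endothelial markers summed to 36.1 and 36.1 in knockdown arrays and to 36.9 and 37.0 in mock arrays. Of these genes 5 lay below the median. Changes were negative for 6 of the 7, while PTPRC had a change of 0.17, with groups apart. For beta-actin, the gap between the control probe sets at the 3′ and 5′ ends, which widens as RNA degrades, was 1.21 and 1.10 in knockdown arrays and 1.04 and 0.995 in mock arrays. For GAPDH the same gap was 0.201 and 0.215 in knockdown arrays and 0.199 and 0.211 in mock arrays, with overlapping groups. DCN, the leukocyte and endothelial sum and the beta-actin gap differed between the groups, and their part in the results below was not tested.

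NRG1 rose in the knockdown cells and was the 1 member past the test, by 1.77-fold at 1 of its 8 probe sets. Among the other members, HBEGF and the brightest probe set of EREG had negative changes, ERBB3 and EGFR had positive changes at their brightest probe sets, and ERBB2, TGFA, BTC and ERBB4 had changes between -0.13 and 0.12 at theirs. Over all 39 probe sets 1 passed at an adjusted p under 0.05, against 0.316% of all probe sets tested, or 0.15% counting those that were higher. At an unadjusted p under 0.05 in limma there were 9 of the 39 (23.1%), against 16.2% of all probe sets. Of these 6 were higher, against 9.1% of all probe sets, and 3 were lower, against 7.07%. The groups did not overlap at 15 of the 39 probe sets (38.5%), against 46.7% of all. Knockdown was above mock at 11 of these, against 24.2% of all probe sets, and below it at 4, against 22.5%. Groups that do not overlap were thus no more frequent among the members than over the whole array. The change was above 0 at 22 of the 39, against 49.1% of all probe sets, and the median log2 change was 0.021 over the 39 and -0.0025 over all. With dim probe sets left out of the fit 7 of 21 member probe sets passed, against 8.54% of the 24646 probe sets then tested. With the spread allowed to vary with brightness 7 of 39 passed, against 6.51% of all. Both took in EGFR, ERBB3, EREG and HBEGF at their brightest probe sets.

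**Figure D1:**
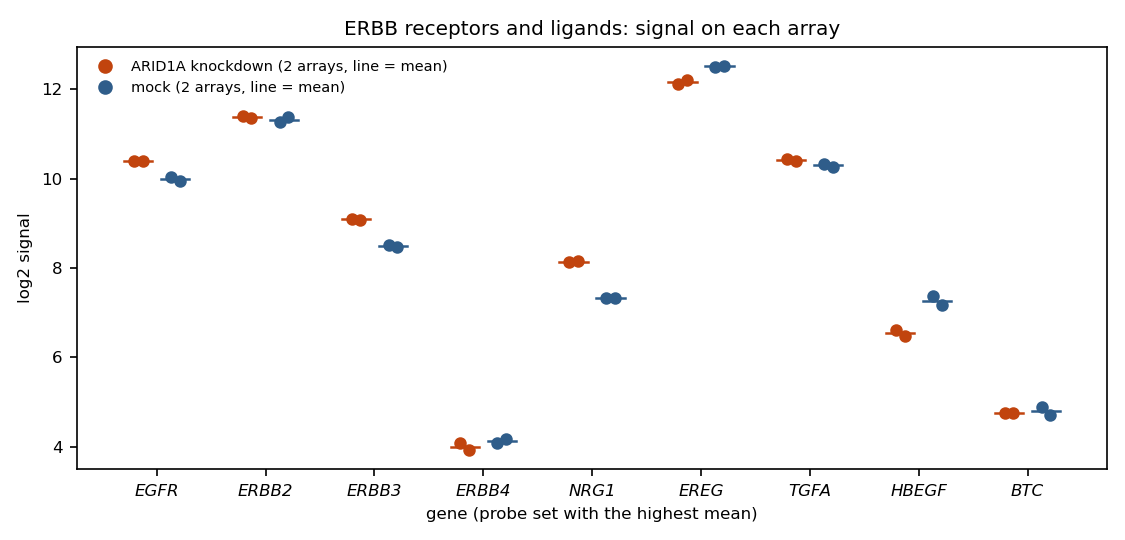
Log2 signal of the brightest probe set of each of the 9 member genes on each array. Points are single arrays and short lines are the means of the 2 arrays of a group, with ARID1A knockdown left of mock. The groups are apart for EGFR, ERBB3, NRG1, EREG, TGFA and HBEGF and overlap for ERBB2, ERBB4 and BTC. Heights are not comparable between genes.

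The receptors are described first. EGFR, the receptor of most of these ligands, was covered by 8 probe sets. At the brightest, 11725103_s_at, the signal was 10.39 and 10.40 in knockdown cells, against 10.04 and 9.96 in mock cells. Both knockdown arrays were above both mock arrays, and the log2 change was 0.40 (SE 0.0740, 95% confidence interval 0.21 to 0.58), which did not pass the test (adjusted p = 0.106). The probe set 11725102_at, which the annotation pairs with the same full-length RefSeq transcript, read 8.96 and 9.02 in knockdown cells and 8.69 and 8.55 in mock cells, a change of 0.37 (adjusted p = 0.139). The groups were again apart. The suffix of the brightest EGFR probe set marks probes that can match other sequences. Without such probe sets EGFR is read by 11725102_at at 0.37 (adjusted p = 0.164 in limma).

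Probe sets 11725104_a_at and 11751983_a_at of EGFR had changes of 0.24 and 0.29, and their groups overlapped. At the first of these the signal was 8.77 and 8.98 in knockdown cells, against 8.49 and 8.77 in mock cells. The 4 dimmest probe sets of EGFR, each below the median of all probe sets, had changes from -0.11 to 0.021. Those with names beginning 11733760, 11742247 and 11738815 are paired by the annotation with RefSeq transcripts that encode short, secreted forms of EGFR without the kinase domain, and at these the signals ran from 3.26 to 5.93 in knockdown cells and from 3.31 to 5.91 in mock cells. One of the 4 dim ones, 11762479_at, had groups apart with knockdown below mock, at 3.44 and 3.34 in knockdown cells and 3.54 and 3.45 in mock cells (change -0.11, adjusted p = 0.571). Changes were thus positive at the 4 EGFR probe sets above the median, with groups apart at 2 of them, and between -0.11 and 0.021 at the 4 below it. The change at the brightest exceeded those at the 4 dimmest by 0.37 to 0.50. In an exact permutation test over the 4 arrays each of these 4 differences had a two-sided p of 0.333, the smallest that 2 arrays against 2 can give.

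ERBB2, the amplified receptor, had no change past the test at any of its 5 probe sets. At the brightest, 11736472_a_at, the signal was 11.40 and 11.35 in knockdown cells and 11.27 and 11.37 in mock cells. The groups overlapped, and knockdown minus mock came to 0.056 (95% confidence interval -0.14 to 0.25, adjusted p = 0.779). At 11750611_a_at the knockdown arrays read 10.16 and 10.21 and the mock arrays 10.04 and 10.10, a change of 0.12 (adjusted p = 0.487). Knockdown was above mock there. The other 3 had overlapping groups and changes of 0.053, -0.040 and -0.077, the last 2 at probe sets paired with a transcript that encodes herstatin, a secreted ERBB2 form that binds and inhibits the receptor.

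ERBB3, the partner of ERBB2 and a receptor of NRG1, gave opposite readings at its 3 probe sets. At 11721445_x_at, paired with the full-length complementary DNA, the signal was 9.09 and 9.09 in knockdown cells, against 8.51 and 8.46 in mock cells. The log2 change was 0.60 (SE 0.0718, interval 0.42 to 0.78), a 1.52-fold difference whose adjusted p of 0.0525 was just outside the threshold. At 11734393_at, paired with the RefSeq transcript of a short form of ERBB3 that lacks the membrane-spanning part, the order of the groups was turned round. Its signal was 6.59 and 6.54 in knockdown cells, against 6.77 and 6.82 in mock cells, a change of -0.23 (interval -0.41 to -0.052, adjusted p = 0.222).

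The third ERBB3 probe set, 11747025_a_at, read 5.89 and 5.95 in knockdown cells and 5.73 and 5.53 in mock cells, a change of 0.29 (adjusted p = 0.236). At all 3 the groups were apart, with knockdown above mock at 2 and below it at 1. The difference between the first and second probe sets was 2.51 and 2.54 on the knockdown arrays and 1.74 and 1.65 on the mock arrays. This gap was wider by 0.83 in knockdown cells (exact permutation test, two-sided p = 0.333, the smallest the design allows). The suffix of the first probe set marks probes that can match other sequences. Without such probe sets ERBB3 is read at -0.23 by the brighter of the remaining probe sets and at 0.29 by the other.

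ERBB4, which binds neuregulins and HBEGF, was dim at all 3 of its probe sets. Over these the signal ran from 3.79 to 4.07 in knockdown cells and from 3.73 to 4.20 in mock cells, below the median of all probe sets. The groups overlapped at each, and the changes were -0.13, -0.079 and -0.094, with adjusted p-values of 0.543, 0.742 and 0.826. At signals this low a change can be understated, and a difference in ERBB4 was not detectable here.

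**Figure D2:**
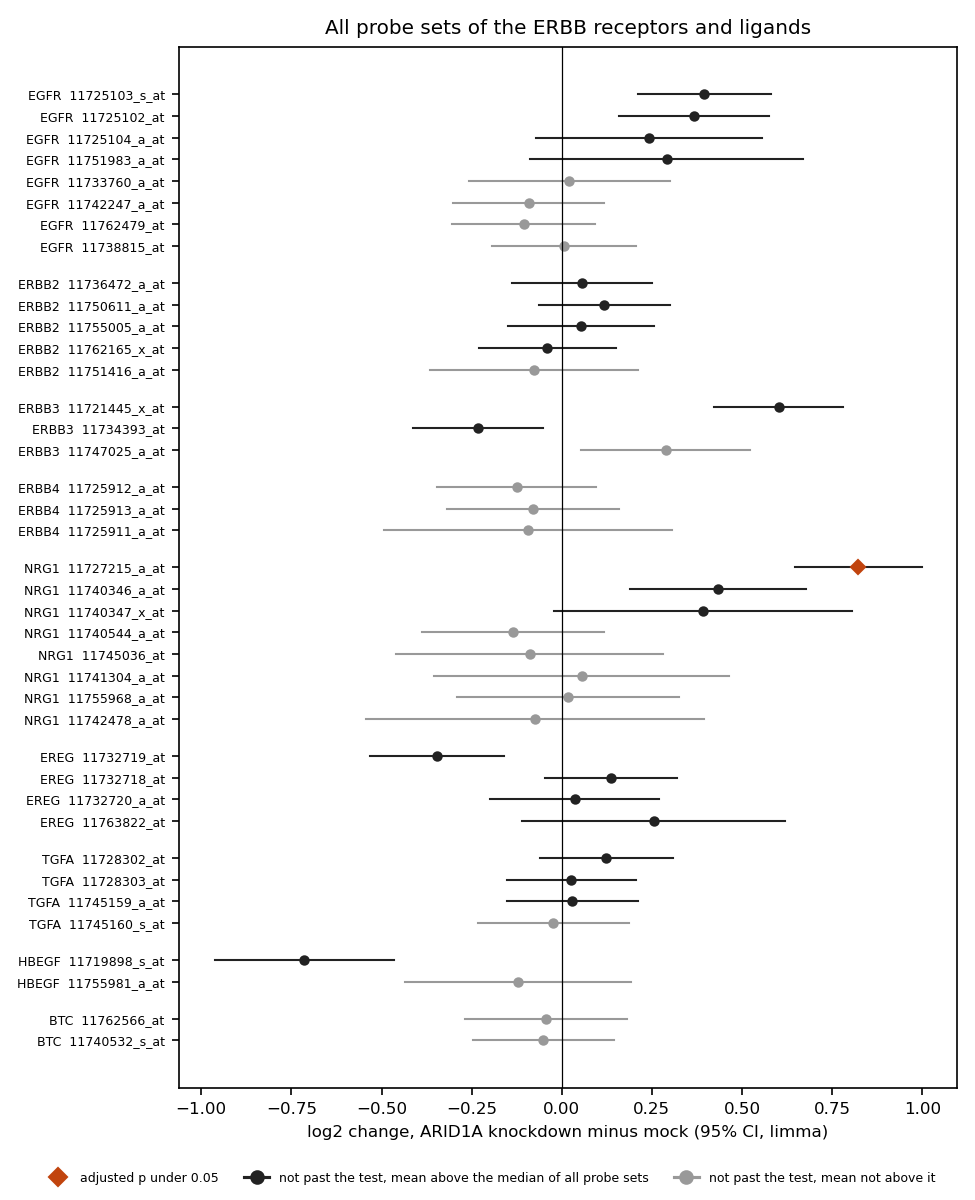
Log2 change, ARID1A knockdown minus mock, of each of the 39 probe sets, grouped by gene and ordered within a gene by brightness, with 95% confidence intervals from limma. The diamond is the NRG1 probe set past the test, at 0.82. Black points have a mean above the median of all probe sets and grey points do not, and the largest change among the grey points is 0.29, at ERBB3.

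Among the ligands, NRG1 was covered by 8 probe sets. At the brightest, 11727215_a_at, the signal was 8.12 and 8.16 in knockdown cells, against 7.32 and 7.32 in mock cells. Both knockdown arrays were far above both mock arrays relative to the spread within a group. The mean was 8.14 ± 0.0222 in knockdown and 7.32 ± 0 in mock cells (SD, n = 2 each), and the log2 change of 0.82 (SE 0.0707, interval 0.65 to 0.998) passed the test (adjusted p = 0.0337). The mock values were identical as deposited, which held for 0.562% of all probe sets, and the spread used in the test is drawn towards that of all probe sets.

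The next brightest NRG1 probe sets had positive changes too, short of the threshold. At 11740346_a_at the signal was 7.65 and 7.46 in knockdown cells, against 7.05 and 7.18 in mock cells, a change of 0.43 (adjusted p = 0.139). At 11740347_x_at it was 7.15 and 6.64 in knockdown cells, against 6.49 and 6.52 in mock cells, a change of 0.39 (adjusted p = 0.330). At all 3 of these the knockdown arrays were above the mock arrays. The last of them is paired with the same transcript as the second, and its suffix marks probes that can match other sequences. They were therefore not taken as readings of separate transcripts, and which transcripts the probes read was not tested.

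The remaining 5 NRG1 probe sets were below the median of all probe sets, and at each the groups overlapped. Their changes ran from -0.14 to 0.055. They include 11742478_a_at, paired with the RefSeq transcript of the gamma form of neuregulin 1, which read 3.03 and 2.45 in knockdown cells and 2.79 and 2.84 in mock cells. The call of NRG1 therefore rests on 1 of 8 probe sets. When a single array was dropped, the spread came from the group left with 2 arrays, the lone array was assumed to vary like it, and none of the 49293 probe sets passed (9.19% to 13.8% had an unadjusted p under 0.05 in limma). The NRG1 change then stayed between 0.81 and 0.84 but did not pass (adjusted p = 0.244 without knockdown replicate 1, 0.347 without knockdown replicate 2, 0.359 without mock replicate 1 and 0.521 without mock replicate 2), and ARID1A did not pass there either. Without probe sets whose names end in _s_at or _x_at the adjusted p of NRG1 was 0.0520.

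HBEGF, a ligand of EGFR and ERBB4 that is held at the cell surface until it is shed, had the largest negative change of the members. At 11719898_s_at the signal was 6.62 and 6.48 in knockdown cells, against 7.36 and 7.17 in mock cells. Both knockdown arrays were below both mock arrays. The log2 change of -0.72 (SE 0.0998, interval -0.96 to -0.47) corresponds to a level 1.64-fold lower in knockdown cells, and its adjusted p of 0.0655 did not pass the threshold. The second probe set, 11755981_a_at, was dim at 3.55 and 3.75 in knockdown cells and 3.63 and 3.92 in mock cells, and its groups overlapped (change -0.12, adjusted p = 0.689). The suffix of the first marks probes that can match other sequences, and without such probe sets HBEGF is read by the dim one alone.

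EREG, a ligand with affinity for EGFR and ERBB4, had changes of both signs over its probe sets. At the brightest, 11732719_at, the signal was 12.13 and 12.22 in knockdown cells, against 12.51 and 12.52 in mock cells, a change of -0.35 (SE 0.0748, interval -0.53 to -0.16, adjusted p = 0.129). At 11732718_at it was 8.61 and 8.69 in knockdown cells, against 8.51 and 8.51 in mock cells, a change of 0.14 (interval -0.046 to 0.32, adjusted p = 0.424). In the first the knockdown arrays were the lower ones and in the second the higher ones.

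The other EREG probe sets had changes of 0.035 (interval -0.20 to 0.27, adjusted p = 0.901) and 0.25 (interval -0.11 to 0.62, adjusted p = 0.456). None of the 4 EREG probe sets has a name ending in _s_at or _x_at. The brightest exceeded 11732718_at by 3.52 and 3.53 on the knockdown arrays and by 4.01 and 4.01 on the mock arrays. This gap was narrower by 0.48 in knockdown cells (-0.48 as knockdown minus mock, exact permutation test, two-sided p = 0.333). That p is the smallest the design allows, so the test cannot tell the probe sets apart. The sign of the EREG change differed between probe sets, but the interval left out 0 at the brightest alone. The positive changes at the others had intervals that held 0.

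TGFA, a ligand of EGFR alone, and BTC, a ligand of EGFR and ERBB4, had no change past the test. TGFA read 10.45 and 10.40 in knockdown cells, against 10.33 and 10.27 in mock cells, at its brightest probe set, 11728302_at, a change of 0.12 (interval -0.061 to 0.31, adjusted p = 0.474). Its knockdown arrays were above its mock arrays there, while at the other 3 probe sets the groups overlapped and the changes ran from -0.024 to 0.030. BTC read 4.75 and 4.75 in knockdown cells and 4.89 and 4.70 in mock cells at 11762566_at, a change of -0.045, and had a change of -0.051 at its other probe set. Both BTC probe sets were below the median of all probe sets.

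**Figure D3:**
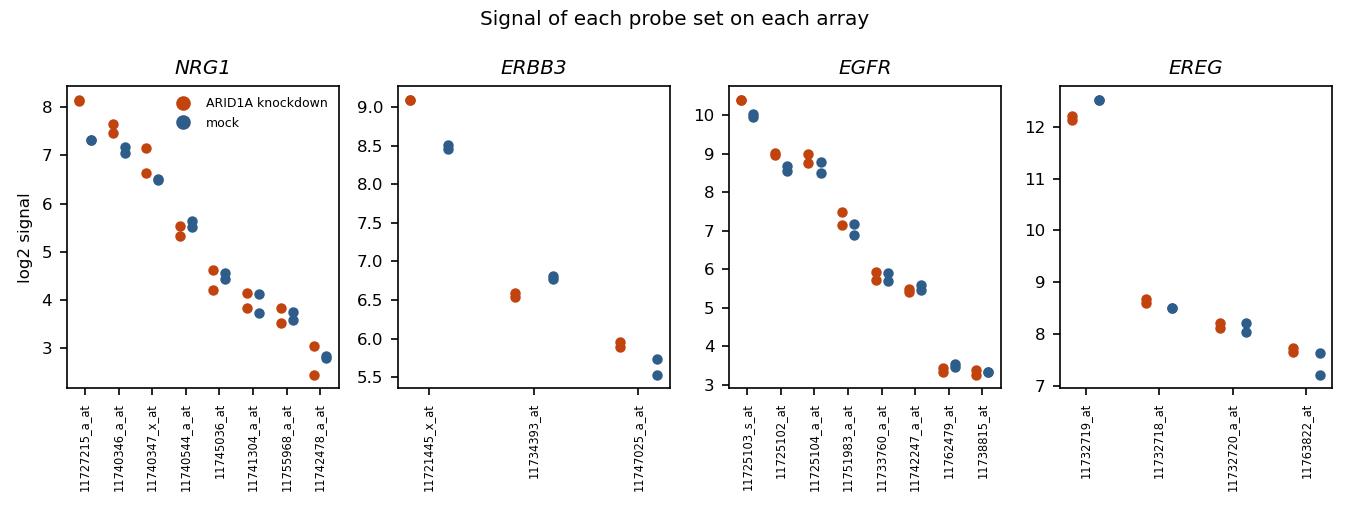
Log2 signal of every probe set of NRG1, ERBB3, EGFR and EREG on each array, ordered from the brightest to the dimmest, with ARID1A knockdown left of mock. The groups are apart, with knockdown above mock, at the 3 brightest NRG1 and the 2 brightest EGFR probe sets. In ERBB3 knockdown is above mock at 11721445_x_at and 11747025_a_at and below it at 11734393_at. In EREG knockdown is below mock at 11732719_at and above it at 11732718_at and 11763822_at. The axes differ between genes.

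Differences lay mostly in the brighter probe sets. Of the 39, 21 had a mean above the median of all probe sets. Among these 21 the groups were apart at 13, against 58.8% of all probe sets of that brightness, and 8 had an unadjusted p under 0.05, against 22%. Of the 18 dimmer ones, the groups were apart at 2, against 34.6% of all dimmer probe sets, and 1 had an unadjusted p under 0.05, against 10.3%. Separated probe sets were more frequent among the brighter ones both for the members and for the whole array.

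Beyond the members, 108 other genes were measured, each at its brightest probe set. They are called pathway genes here, though 16 of them were listed for lying near ERBB2 on chromosome 17. None passed the test in limma, against 0.403% of all genes, and the smallest adjusted p was 0.0643. At an unadjusted p under 0.05 there were 33 of 108 (30.6%), against 17% of all genes. Of these 25 were higher, against 9.76% of all genes, and 8 were lower, against 7.25%. Most of the 108, 92 of them, were brighter than the median of all probe sets. Of all probe sets that bright, 22% had an unadjusted p under 0.05 in limma. The median change was 0.042 over the 108 and -0.0043 over all genes. In the counts by role below, higher and lower mean past this unadjusted threshold, against 9.76% and 7.25% of all genes.

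The proteases that release the ligands and their regulators had 5 genes that were higher and 1 that was lower of 11 measured, with a median change of 0.14. ADAM17, the main sheddase of TGFA and HBEGF, read 10.18 and 10.14 in knockdown cells, against 9.77 and 9.68 in mock cells, a change of 0.44 (adjusted p = 0.0935). ADAM10, which sheds BTC, read 8.51 and 8.64 in knockdown cells, against 8.20 and 8.07 in mock cells, a change of 0.44 (adjusted p = 0.117). In both the knockdown arrays were above the mock arrays. The next brightest probe set of ADAM17 had a change of 0.35 and its dim ones of 0.0011 and -0.031, while the other 3 of ADAM10 each had 0.37. The rhomboid protease gene RHBDL2 had a change of 0.38, with 0.67, 0.47 and 0.055 at its other probe sets, and RHBDF1, an inactive rhomboid that guides ADAM17 to the surface, of 0.34 at its brightest probe set and of -0.29 at its second.

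Of 16 genes listed as negative regulators of the receptors or of their signalling, 4 were higher and none was lower at the unadjusted threshold (median change 0.084). The shares over all genes were 9.76% and 7.25%. By sign alone, 10 of the 16 had changes above 0 and 6 had changes below it. ERRFI1, which binds the kinase domain of EGFR and ERBB2 and blocks it, read 12.36 and 12.33 in knockdown cells, against 11.87 and 11.88 in mock cells. Its groups were apart, and its change was 0.47 (adjusted p = 0.0754). CBLC, a ubiquitin ligase of the CBL family, had a change of 0.40, the RAS inhibitor NF1 of 0.26, and RNF41, which targets ERBB3 for degradation, of 0.23. The other probe sets of RNF41 had changes of -0.081 and -0.14, and those of NF1 ran from -0.33 to 0.31.

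Genes induced by ERK signalling gave both directions, with 4 that were higher and 2 that were lower of 18 measured (median 0.0060). FOSL1, which encodes the AP-1 subunit FRA1, read 9.29 and 9.32 in knockdown cells, against 9.82 and 9.97 in mock cells, a change of -0.59 (adjusted p = 0.0699). Its other 5 probe sets had changes from -0.59 to -0.30, so every probe set of FOSL1 had a negative change. In the other direction, the phosphatase gene DUSP5 had a change of 0.40, the immediate early transcription factor gene EGR1 of 0.34 and the early response gene IER3 of 0.33. Feedback and target genes of ERK therefore did not share a direction at this threshold.

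Genes that FOXO factors induce when AKT is less active had 4 that were higher and 1 that was lower of 11 measured (median 0.083). CCNG2, an atypical cyclin, had a change of 0.56 (adjusted p = 0.0738), the transcriptional repressor gene BCL6 of 0.48 (0.14 to 0.27 at its other probe sets), the adaptor gene IRS2 of 0.39 and the stress gene SESN1 of 0.24. The other probe sets of CCNG2 had changes from -0.27 to 0.36. Of 18 adaptors and kinases between the receptors and ERK or AKT, 2 were higher and 1 was lower (median 0.035), with changes of 0.37 for the RAS activator SOS2, 0.32 for the PI3K subunit PIK3CB, -0.23 for HRAS and -0.13 for the adaptor GRB2, whose second probe set had 0.071. The 5 other ligands, EGF, EPGN, NRG2, NRG3 and NRG4, were all below the median of all probe sets, with a median change of 0.052. NRG2, with a change of -0.22 (adjusted p = 0.300), was the 1 among them that was lower at the unadjusted threshold. NRG3 had 0.14, NRG4 0.087 and EPGN -0.094.

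Genes near ERBB2 on chromosome 17 were set beside it, since they can share its amplification. Of 16 measured 2 were higher and none was lower at the unadjusted threshold, with a median change of 0.024. GRB7, an adaptor that binds ERBB2, read 10.46 and 10.46 in knockdown cells, against 10.19 and 10.18 in mock cells, a change of 0.27 (adjusted p = 0.168), and its second probe set had a change of 0.44 (adjusted p = 0.0934). STARD3, a cholesterol-binding protein of endosomes on the other side of ERBB2, read 11.71 and 11.68 in knockdown cells and 11.65 and 11.73 in mock cells, with overlapping groups and a change of 0.0071, and its other probe sets ran from 0.0012 to 0.40, the last at one of its 2 dimmest. The gasdermin gene GSDMB had a change of 0.34. PGAP3, which modifies GPI anchors and lies next to ERBB2, had a change of -0.17, with -0.28 at its second brightest and negative values at all 7 of its probe sets, and the lymphoid factor gene IKZF3 had -0.15. Of the 16, 9 had changes above 0 and 7 had changes below it, and PGAP3 and IKZF3 were not past the unadjusted threshold.

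Of 13 partners in binding and traffic, 4 were higher and 2 were lower (median -0.057). MUC4, a membrane mucin that binds ERBB2, read 8.12 and 8.29 in knockdown cells, against 8.93 and 8.82 in mock cells, a change of -0.67 (adjusted p = 0.0643), while its dimmer second probe set had a change of -0.16. RAB11FIP1, which takes part in the recycling of endosomes, had a change of 0.45 (adjusted p = 0.0889), with values of 0.65 to 0.72 at 3 further probe sets and of 0.39, 0.20 and -0.20 at the remaining 3. EPS8, a substrate of EGFR, had a change of 0.26, and HSP90AA1, a chaperone that ERBB2 depends on, of -0.27 at its brightest probe set and -0.28 at the other.

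**Figure D4:**
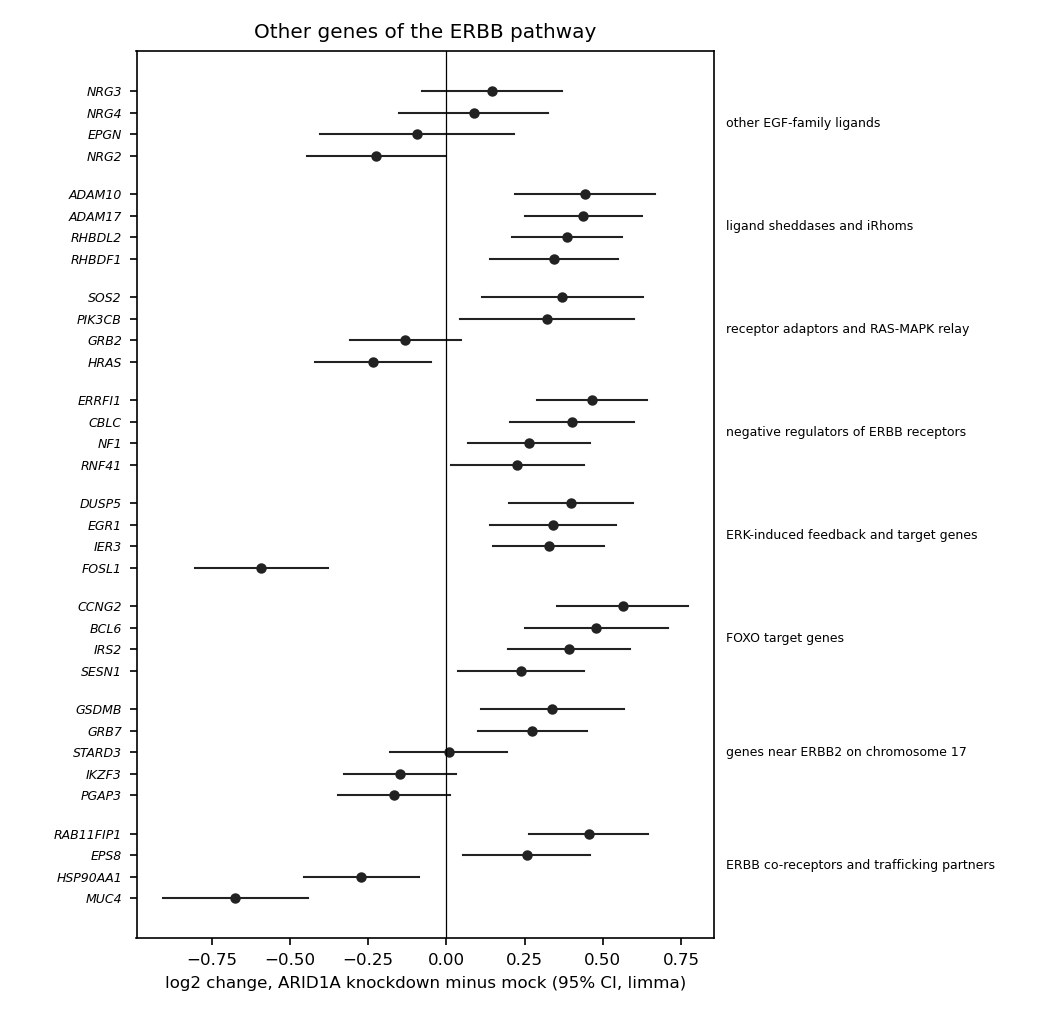
Log2 change, ARID1A knockdown minus mock, of the pathway genes named here, which include genes near ERBB2 on chromosome 17, each at its brightest probe set. Bars are 95% confidence intervals from limma, and genes are grouped by role or position. Points right of 0 are higher in ARID1A knockdown. The largest positive value is CCNG2 at 0.56 and the largest negative one MUC4 at -0.67, and none of the points passed the test.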

How the data were processed

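RNA of OE33 cells was measured on 4 arrays, grouped by the sample titles. The deposited values are log2 signals per probe set. The submitters' processing notes name RMA and Partek, without version or role. RMA includes a normalization between arrays, though the deposited array medians still differed slightly, and changes of dim probe sets can be understated. The log2 scale was read from the range of the values. Array signals give no depth, and the number of arrays limits precision. No scan batch was known.

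After 79 control probe sets were left out, knockdown was compared with mock by limma 3.58.1 (lmFit, eBayes, R 4.3.3), two-sided, without pairing, with Benjamini-Hochberg adjustment over 49293 probe sets at 0.05. Residual degrees of freedom were 2 and the prior was worth 3.62. SDs are over a group's 2 arrays. A gene is represented by its probe set with the highest mean, and names came from the platform annotation. The procedure was tested on simulated data. Every member and, per pathway list, up to 4 genes with the smallest unadjusted p were named, with GRB7 and STARD3. Members and lists were chosen with earlier results of these data known. The replicates are described as biological without further detail, so p-values measure only the spread between these samples.

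Alternatives were centring on medians, quantile normalization, a filter on dim probe sets, an intensity trend in the prior, no probe sets with shared probes, replicate blocks, single arrays left out, and medians over probe sets. Some listed genes were not analysed here. Same-numbered arrays had deviations correlated at -0.202, so the numbers were not taken to pair the arrays.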

Additional observations from a re-analysis of the deposited data

How the results depend on the processing

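NRG1 was the 1 member called, and 156 probe sets were called in all, 74 of them higher. With arrays centred on their medians 671 were called, 403 of them higher, with 3 member probe sets, ERBB3 at 0.60 (adjusted p = 0.0228) and HBEGF at -0.71 (adjusted p = 0.0240) being added, and 4 of the pathway genes. Quantile normalization gave 297, 2 member probe sets with ERBB3 at 0.57 (adjusted p = 0.0458), and 1 pathway gene. With dim probe sets left out the counts were 2106 of 24646 probe sets (8.54%), 7 of 21 member probe sets and 17 of 92 pathway genes. With an intensity trend in the prior they were 3209 of 49293 (6.51%), 7 of 39 and 27 of 108. In both of these settings, which leave the changes as they were, EGFR (0.40), ERBB3 (0.60), EREG (-0.35) and HBEGF (-0.72) passed.

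Without probe sets ending in _s_at or _x_at 23 of 34921 were called and 0 of 32 member probe sets (6 at an unadjusted p under 0.05 in limma, against 14.9% of all). NRG1 was then at 0.82 (adjusted p = 0.0520). ERBB3 turned to -0.23, GRB2 to 0.071, NF1 to -0.082 and RNF41 to -0.081, since another probe set is then the brightest. The same holds for EGFR (0.37), HBEGF (-0.12), BCL6 (0.27), RHBDL2 (0.67) and PGAP3 (-0.28). Taking the median over a gene's probe sets gave 0.13 for EGFR, 0.29 for ERBB3, 0.036 for NRG1, 0.028 for TGFA, -0.42 for HBEGF and, turned in sign, 0.086 for EREG, 0.033 for NRG2, -0.012 for NRG3 and -0.081 for RNF41. A count of called pathway genes was not run for such medians, which have no p-value.

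The replicate block called 0 probe sets in limma (10 of 39 member probe sets at an unadjusted p under 0.05, against 11.2% of all), with NRG1 at 0.82 (adjusted p = 0.241) and ARID1A at -1.78 (adjusted p = 0.217). The crossed replicate block, added after seeing the data because same-numbered arrays deviated in opposite directions, also called 0 (9 of 39 at an unadjusted p, against 19.2%). Leaving out single arrays called 0 probe sets and 0 members each time (8 to 10 of 39 at an unadjusted p, against 9.19% to 13.8%), with NRG1 at 0.81 to 0.84 and ARID1A at -1.80 to -1.75. There BTC ran from -0.14 to 0.051 (above 0 without mock replicate 1), STARD3 from -0.033 to 0.047, NRG4 from -0.0045 to 0.18 and EPGN from -0.26 to 0.075. STARD3 turned to -0.016 with quantile normalization. Of the 39 member probe sets 16 changed sign in some setting, and 0 of the 9 with an unadjusted p under 0.05 did. Where no reason is given, the cause was not tested.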
